A study of Mus musculus with 3 samples.

Results

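The 10 genes described here make up the MHC class II presentation machinery. They are H2-Aa, H2-Ab1 and H2-Eb1 (the antigen-presenting chains), Cd74 (the invariant chain), Ciita (the transactivator), H2-DMa, H2-DMb1 and H2-DMb2 (the peptide editor) and H2-Oa and H2-Ob (the editor's inhibitor). They were chosen by name, 10 of the 32285 genes counted, and were followed through 5 classes of islet-infiltrating immune cells. The cells were live CD45+ cells sorted from dispersed islets of wild-type NOD female mice aged 15 to 16 weeks, an inbred strain that develops autoimmune diabetes. There were 3 droplet 3′ RNA libraries (replicates 1 to 3) from 2 independent experiments, each library holding the islets of 2 to 3 pooled mice, and no treatment or second genotype. The libraries therefore allow comparisons between cell classes within one condition, with n = 3 libraries, and mice within a library cannot be told apart.

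Class II molecules are pairs of an alpha and a beta chain that show peptides of engulfed or internalised proteins to CD4 T cells. The chains are assembled on the invariant chain, cathepsins trim it to the CLIP fragment, and H2-DM exchanges CLIP for other peptides, while H2-O holds H2-DM back. CIITA does not bind DNA itself but docks on factors bound to the X and Y boxes of class II promoters. NOD mice carry the I-A(g7) form of H2-Aa and H2-Ab1 and lack surface I-E because their E alpha gene is defective. H2-Eb1 RNA therefore has no functional E alpha partner here, and the E alpha gene is not among the genes counted. Reads were counted against the mm10 reference, which carries C57BL/6 alleles, and the effect of the NOD alleles on the counts was not tested.

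Classes were defined by unique molecular identifiers (UMIs, one per captured RNA molecule) of genes outside the 10, in 26142 of 26947 cells that had at least 1000 UMIs and under 10% mitochondrial UMIs. B cells (4936) had at least 2 Cd79a UMIs and no Cd3e. Macrophages (68) had at least 5 UMIs of C1qa and C1qb together. Dendritic cells (211) had at most 2 UMIs of C1qa and C1qb and at least 2 UMIs over Flt3, Zbtb46, Xcr1, Clec9a and Cd209a. Both classes had no Cd3e and at most 1 Cd79a UMI. The T gates set no limit on Cd79a, C1qa, C1qb or the dendritic genes. A barcode with both Cd3e and Cd79a could thus enter a T class but not the B class. CD8 T cells (3258) had Cd3e, at least 2 UMIs of Cd8a and Cd8b1 together and no Cd4. CD4 T cells (6729) had Cd3e, at least 1 Cd4 UMI and no Cd8a or Cd8b1. These 15202 cells were summed by library and class into 15 sums, and levels are given as CPM, UMI counts scaled to 1000000 UMIs per sum. The macrophage sums were the thinnest, with 31, 10 and 27 cells and 189185, 126156 and 242681 UMIs. The median depth per cell was 4309 to 6784 UMIs in B cells, 5376 to 12864 in macrophages, 8988 to 15006 in dendritic cells, 5397 to 7665 in CD8 T cells and 4624 to 6634 in CD4 T cells. Pairs of libraries shared 12, 18 and 29 cell barcodes, at most 0.308% of the smaller library.

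Markers that the gates had not used gave the following levels. The B gate held Cd79b at 446 to 696 CPM and Ms4a1 at 471 to 578 CPM, the macrophage gate Lyz2 at 5143 to 8315 CPM and Csf1r at 312 to 457 CPM, and the dendritic gate Itgax at 125 to 141 CPM and Irf8 at 672 to 798 CPM. Itgax did not separate dendritic cells from macrophages, which held it at 122, 151 and 41.2 CPM, whereas their Irf8 was lower, at 238 to 449 CPM. The summed level of 3 B genes (Cd79b, Ms4a1, Ighm) was 2182 to 3986 CPM in B cells, but also 342 to 611 CPM in CD4 T cells and 112 to 529.9 CPM in CD8 T cells, with all 3 detected in both. The dendritic gate was mixed, since Siglech, Bst2 and Ccr9, markers of plasmacytoid dendritic cells, summed to 1188 to 2953 CPM there. Ins2 reached 779 CPM in 1 macrophage sum, and its part in the results was not tested.

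The genes stand close together on chromosome 17 of GRCm38 (mm10), except Ciita and Cd74. In the GENCODE M21 annotation H2-Oa lies at chr17:34092340-34095234, H2-DMa at chr17:34119541-34139101, H2-DMb2 at chr17:34143307-34151555, H2-DMb1 at chr17:34153072-34160230, H2-Ob at chr17:34238903-34254414, H2-Ab1 at chr17:34257689-34269419, H2-Aa at chr17:34282744-34287823 on the minus strand and H2-Eb1 at chr17:34305867-34316674. Ciita lies at chr16:10480059-10528418. RefSeq promoter windows of 300 bases (GRCm38.p6) were at hand for 7 of the 10 genes, all but H2-Ab1, Ciita and Cd74. The stretches below show where X and Y box letters stand, and for H2-DMb2 the place that aligns with H2-DMb1. Capitals mark CNNGNAAC (the X box core) and ATTGG (the core of the Y box), 5′ to 3′ on the gene's strand. The stretches of H2-DMb1 and H2-DMb2 end before ATTGG, and that of H2-DMb2 holds no CNNGNAAC.
H2-Aa (chr17:34287867-34287915, minus): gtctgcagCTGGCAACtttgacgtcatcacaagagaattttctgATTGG
H2-Eb1 (chr17:34305765-34305812, plus): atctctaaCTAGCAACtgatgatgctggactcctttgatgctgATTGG
H2-Oa (chr17:34092292-34092340, plus): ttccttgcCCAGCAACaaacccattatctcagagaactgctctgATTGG
H2-Ob (chr17:34238807-34238852, plus): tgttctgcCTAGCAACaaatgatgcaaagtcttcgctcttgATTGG
H2-DMb1 (chr17:34153086-34153115, plus): aggtttacCTAGTAACtgatgatgctaggc
H2-DMb2 (chr17:34145115-34145144, plus): aggtttacctattaaccgatgatgctaggc

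CNNGNAAC, searched on both strands, stood in the windows of all 7 genes but also in 39.1% of 32851 promoter windows of the same length, and ATTGG in 7 genes and 37.4% of windows. The longer Y box CTGATTGG, which contains ATTGG, stood in 3 of the 7 (H2-Aa, H2-Eb1 and H2-Oa) and in 4.1% of windows. CNNGNAAC followed 30 to 40 bases on by ATTGG, on the gene's strand, stood in 5 of the 7 genes and in 0.216% of windows. ATTGG and this spacing were chosen after the sequences had been seen. H2-DMb1 and H2-DMb2 encode alternative beta chains of H2-DM and are close copies: over 49 aligned bases 44 were equal and 5 differed. Counted from 1 at the 5′ end of the printed stretch, with the H2-DMb1 base first, G12T falls in the capitals and T17C after them, so these letters of the X box core are not in that place in H2-DMb2. In GENCODE M21 the stretch of H2-DMb1 lies inside its annotated gene, which starts at chr17:34153072. The stretch of H2-DMb2 also lies inside its annotated gene, which starts at chr17:34143307.

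The antigen-presenting chains were highest in macrophages and dendritic cells and lower in B cells. H2-Aa, the alpha chain of I-A, stood at 4030.2, 6275 and 6001 CPM in B cells, 11016, 13103 and 11414 CPM in macrophages and 8886, 10987 and 10460.5 CPM in dendritic cells (replicates 1, 2 and 3). All B sums lay below all dendritic sums, and these below all macrophage sums. The dendritic sums mix subsets, however. H2-Aa stood at 3797, 5014 and 4058 CPM in their Siglech cells. In those with at least 2 Ccr7 UMIs it stood at 9942, 14188 and 13915 CPM, which overlapped macrophages. H2-Ab1, the I-A beta chain, stood at 5006 ± 1313 CPM in B cells, 10476 ± 867 in macrophages and 9962 ± 1011 in dendritic cells (mean ± SD, n = 3), and macrophages and dendritic cells overlapped. H2-Eb1, the I-E beta chain, stood at 3968 ± 450, 10143 ± 921 and 8134 ± 520 CPM in the same order, with no overlap. The Ccr7 dendritic cells alone, at 9590, 11289 and 10424 CPM, did overlap macrophages. In edgeR's quasi-likelihood test over the 15 sums (blocked by library, p-values adjusted by Benjamini-Hochberg across 12055 genes), H2-Aa was lower in B cells than in macrophages by a log2 difference of -1.10 (SE 0.17, adjusted p = 7.57e-05). H2-Ab1 differed by -1.04 (SE 0.18, adjusted p = 0.000183) and H2-Eb1 by -1.31 (SE 0.16, adjusted p = 4.75e-06). Dendritic cells were higher than B cells by 0.82, 0.92 and 0.94 for the 3 chains (adjusted p 0.000859, 0.000456 and 0.000116). Between dendritic cells and macrophages none of the 3 chains passed the test, with differences of -0.28, -0.13 and -0.37 (adjusted p 0.303, 0.695 and 0.124).

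Cd74, on chromosome 18, followed the chains. It stood at 7755, 13028 and 11884 CPM in B cells, 20742, 23899 and 22354 CPM in macrophages and 14347, 18579 and 17403 CPM in dendritic cells, without overlap. The Ccr7 dendritic cells alone, at 15670, 22833 and 22064 CPM, did overlap macrophages. B cells were below macrophages with a log2 difference of -1.03 (SE 0.16, adjusted p = 7.78e-05), a difference that was called in all 10 alternative analyses. Dendritic cells were above B cells by 0.56 (SE 0.16, adjusted p = 0.00911), which was called in 6 of 10 alternatives (adjusted p up to 0.133; without replicate 1 it was 0.109 and without the library block 0.0799). Dendritic cells were below macrophages with a log2 difference of -0.47 (adjusted p = 0.0489), which was called in 2 of 10 alternatives. Set against the I-A chains themselves, dendritic cells held fewer Cd74 UMIs: 80.2, 84.4 and 85.7 Cd74 UMIs per 100 UMIs of H2-Aa and H2-Ab1, against 104 ± 2.91 in B cells and 100.2 ± 5.07 in macrophages. This ratio does not depend on the scaling to CPM. Its log2 difference of B over dendritic cells was 0.32 ± 0.06 (SD) with 3 of 3 libraries positive, but the exact two-sided sign-flip permutation test over 3 libraries cannot give a p under 0.25 (adjusted p = 0.458 over 11 ratio comparisons). The low ratio was not shared by all dendritic subsets described below. Siglech cells had mean levels of 8673 CPM for Cd74, 4289 for H2-Aa and 3459 for H2-Ab1, so Cd74 exceeded both chains together. Ccr7 cells had 20189, 12682 and 12467 CPM, with Cd74 below both chains together.

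Ciita, the transactivator, was counted at low levels: 41.5, 34.3 and 36.2 CPM in B cells, 63.4, 151 and 94.8 CPM in macrophages and 46.3, 126 and 80.1 CPM in dendritic cells. The 3 macrophage values rest on 54 UMIs in all, and each of them lay above every B value. B cells were below macrophages with a log2 difference of -1.38 (SE 0.37, adjusted p = 0.00741) and dendritic cells above B cells by 1.02 (SE 0.24, adjusted p = 0.00262). Without replicate 2 the first difference had an adjusted p of 0.0732 and without replicate 3 of 0.0535 (range over 10 alternatives 2.67e-05 to 0.0732). Without replicate 2 the second had an adjusted p of 0.120 (range 7.03e-07 to 0.120). The plot of levels by class shows the chains, Cd74 and Ciita with their highest mean in macrophages. Among the antigen-presenting classes, the last 3 genes had their lowest mean there.

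**Figure D1:**
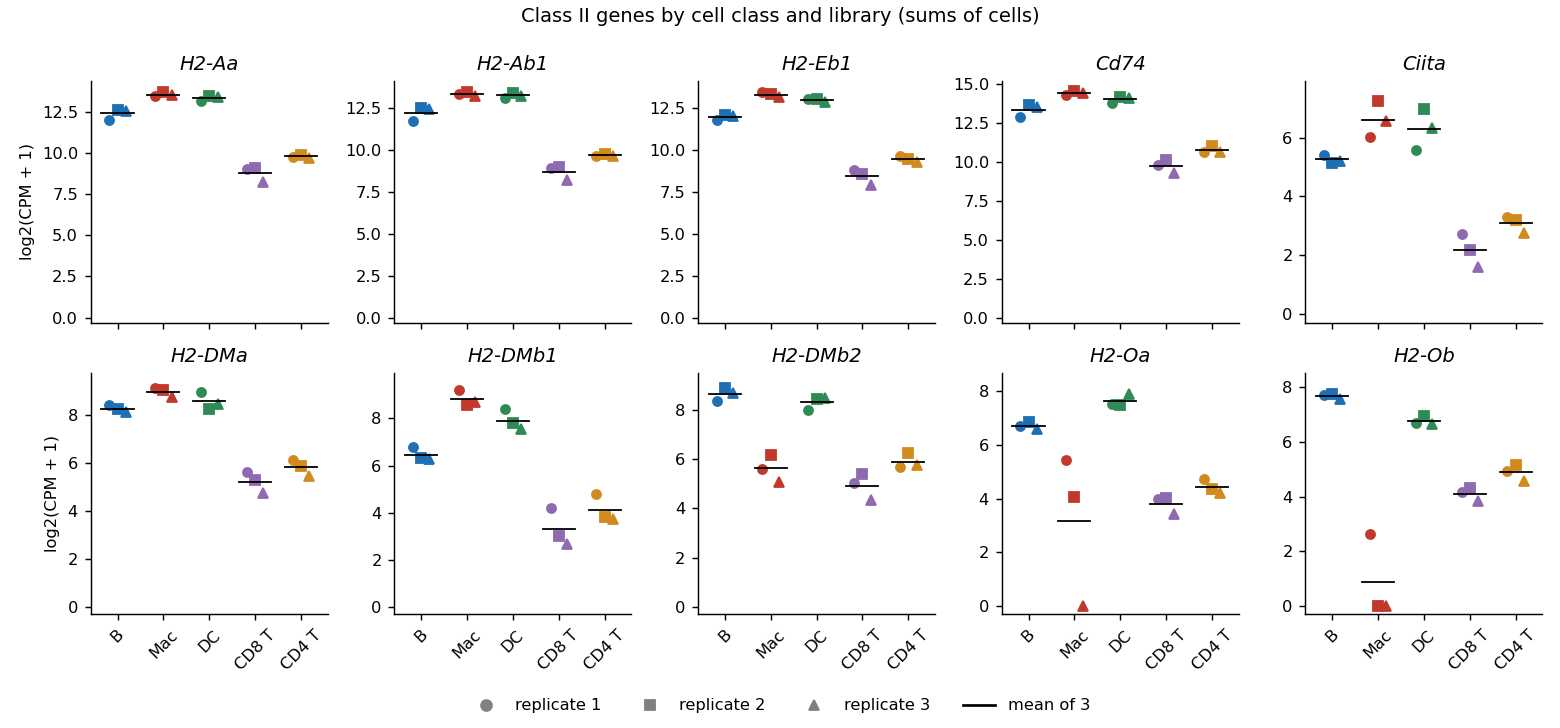
Level of each of the 10 genes on a log2(CPM + 1) axis, per cell class (B cells, macrophages, dendritic cells, CD8 T cells, CD4 T cells) and library; symbols are the 3 replicates and lines their mean of log2 values. H2-DMb2, H2-Oa and H2-Ob are low in macrophages, where the other 7 genes are at their highest mean.

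The RNA of the peptide editor differed between classes in its beta chain genes. H2-DMa, its alpha chain, stood at 308 ± 29.0 CPM in B cells, 505 ± 71.5 in macrophages and 385 ± 102 in dendritic cells (mean ± SD, n = 3), and neighbouring classes overlapped. H2-DMb1 stood at 109, 78.4 and 76.5 CPM in B cells, 587, 373 and 408 CPM in macrophages and 334, 224 and 184 CPM in dendritic cells. H2-DMb2 stood at 329, 465 and 412 CPM in B cells, 47.6, 71.3 and 33.0 CPM in macrophages and 255, 347 and 353 CPM in dendritic cells. H2-DMb1 thus separated all 3 classes, with macrophages on top, while H2-DMb2 was lowest in macrophages and overlapped between B and dendritic cells. In edgeR's test H2-DMb1 was lower in B cells than in macrophages with a log2 difference of -2.34 (SE 0.17, adjusted p = 1.22e-08) and H2-DMb2 higher by 3.09 (SE 0.28, adjusted p = 1.56e-07). The pooled UMI ratio of H2-DMb2 in B cells over macrophages was 8.76 (95% interval 5.98 to 13.4, counting error only). H2-DMa was lower in B cells with a log2 difference of -0.67 (adjusted p = 0.00398), or 0.0566 without replicate 1 (range over 10 alternatives 5.48e-05 to 0.0566).

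Within a library, macrophages held 111 H2-DMb1 and 9 H2-DMb2 UMIs in replicate 1, 47 and 9 in replicate 2, and 99 and 8 in replicate 3. B cells held 33.2, 16.9 and 18.5 H2-DMb1 UMIs per 100 H2-DMb2 UMIs, and dendritic cells 131, 64.3 and 52.1. The beta chains' order was thus opposite in B cells and macrophages in every library. H2-DMb1 was higher in dendritic than in B cells by 1.38 (SE 0.15, adjusted p = 1.43e-06) and lower than in macrophages with a log2 difference of -0.96 (SE 0.17, adjusted p = 0.000798). The latter was lost without the library block (adjusted p = 0.119) and with stricter gates (0.0596; range over 10 alternatives 1.00e-06 to 0.119). H2-DMb2 differed between dendritic cells and macrophages by 2.68 (SE 0.29, adjusted p = 4.90e-06) and between dendritic and B cells by -0.41 (adjusted p = 0.0706). How reads that fit both copies were divided is not known, so the split between H2-DMb1 and H2-DMb2 is uncertain. Replicate 1 had the highest H2-DMa and H2-DMb1 CPM in all 5 classes.

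H2-O, the inhibitor of the editor, was near its detection limit in macrophages and clear in B and dendritic cells. H2-Oa stood at 104, 114 and 94.2 CPM in B cells, 42.3, 15.9 and 0 CPM in macrophages and 179, 178 and 233 CPM in dendritic cells. H2-Ob stood at 211, 212 and 187 CPM in B cells, 5.3, 0 and 0 CPM in macrophages and 101, 124 and 100.4 CPM in dendritic cells. The macrophage values are 8, 2 and 0 UMIs of H2-Oa and 1 UMI of H2-Ob in all, below every B and dendritic value. H2-Oa was highest in dendritic cells and H2-Ob highest in B cells, without overlap. The Siglech cells within the dendritic gate had less H2-Oa, at 98.3, 71.5 and 46.9 CPM, which was not above B cells. In replicate 1 the 12 dendritic cells with Xcr1 or Clec9a were also below B cells, at 59.7 CPM. Dendritic cells were above B cells by 0.85 for H2-Oa (SE 0.20, adjusted p = 0.00200) and below them with a log2 difference of -0.99 for H2-Ob (SE 0.13, adjusted p = 8.26e-06). H2-Oa was higher in B cells than in macrophages by 2.54 (SE 0.49, adjusted p = 0.000671) and in dendritic cells by 3.40 (SE 0.47, adjusted p = 6.83e-05). The sizes depend on single libraries: without replicate 1 they were 4.395 and 5.21 and without replicate 3 they were 1.79 and 2.45, and both were called in all 10 alternatives. The fitted size for H2-Ob rests on that 1 UMI, and its pooled UMI ratio was 114 for B cells over macrophages (95% counting interval 20.5 to 4508) and 59.5 for dendritic cells (10.6 to 2360). The adjusted p for H2-Ob was 3.03e-09 and 7.76e-07.

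The balance of inhibitor to editor followed. Per 100 UMIs of the 3 H2-DM genes, B cells held 40.5, 38.5 and 36.5 UMIs of H2-O and dendritic cells 25.8, 34.4 and 37.6. Macrophages held 9 H2-O to 226 H2-DM UMIs, 2 to 123 and 0 to 210, or 1.97 per 100 pooled. The log2 difference of B cells over macrophages, with 1 UMI added to each sum, was 4.49 ± 1.59 (SD) and positive in 3 of 3 libraries (exact sign-flip permutation test, two-sided, p = 0.25, the smallest it can give). B and dendritic cells differed by 0.25 ± 0.36, with 2 of 3 libraries positive (exact p = 0.5).

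Counted over the 10 genes, 3 were called higher and 7 lower in B cells than in macrophages, where 33.4% of all genes tested were called (17.3% higher and 16.1% lower). Dendritic cells over B cells gave 7 higher, 1 lower and 2 not called, against 43.5% called of all genes (21.9% higher, 21.6% lower). Dendritic cells over macrophages gave 3 higher, 2 lower and 5 not called, against 18.1% (9.33% higher, 8.8% lower). The median log2 difference of the 10 genes was -1.04 in the first comparison, 0.84 in the second and -0.32 in the third, and that of all genes 0.43, -0.12 and 0.24. With DESeq2, which changes the size factors, the fit and the test together, the medians of all genes moved to 0.17, -0.11 and 0.04, and the share of calls that were higher from 51.9 to 40.3% in the first and from 51.5 to 39.97% in the third. The 10 genes kept their directions in these comparisons with DESeq2 and with library totals in place of TMM. With library totals alone those shares were 50.2 and 55.1%.

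**Figure D2:**
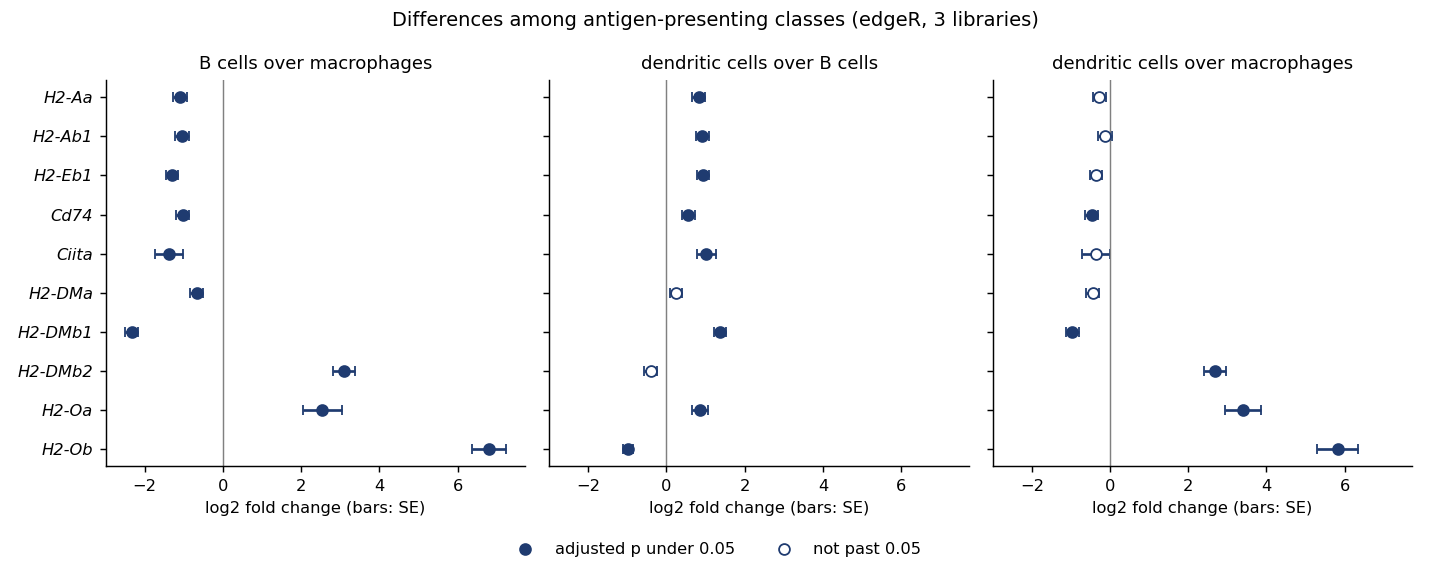
Log2 difference of each gene in 3 comparisons among antigen-presenting classes, from edgeR over 3 libraries with SE bars; filled points have an adjusted p under 0.05. H2-DMb2, H2-Oa and H2-Ob lie right of 0 in B cells and dendritic cells over macrophages, and the other 7 genes lie left of it.

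The chains were also set against each other. H2-Aa stood at 109 ± 5.15, 113 ± 6.16 and 101 ± 4.04 UMIs per 100 H2-Ab1 UMIs in B cells, macrophages and dendritic cells. H2-Eb1 stood at 98.9, 73.5 and 73.1 per 100 H2-Ab1 UMIs in B cells, 106, 89.4 and 95.2 in macrophages and 93.5, 76.6 and 76.4 in dendritic cells. Replicate 1 had the highest H2-Eb1 to H2-Ab1 ratio in all 5 classes, T cells included. The H2-Eb1 to H2-Ab1 ratio was lower than in macrophages in 3 of 3 libraries both for B cells (log2 difference -0.26 ± 0.14, SD) and for dendritic cells (-0.24 ± 0.07), and the H2-Aa to H2-Ab1 ratio was lower in dendritic cells than in macrophages in 3 of 3 (-0.16 ± 0.05). Each had p = 0.25 (adjusted p = 0.458), the smallest that the exact sign-flip permutation test can give.

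Among individual cells, class II RNA was high in most antigen-presenting cells and split in T cells. The summed UMIs of H2-Aa, H2-Ab1, H2-Eb1 and Cd74 (the core genes below) had a median of 21.9, 31.7 and 31.6 per 1000 UMIs over B cells, 55.7, 58.2 and 50.5 over macrophages and 42.5, 49.2 and 45.3 over dendritic cells. Of these 3 classes dendritic cells were the most uneven, with a 10th percentile of 8.83 to 12.2 and a 90th of 61.9 to 75.7 per 1000. These percentiles were 12.2 to 21.1 and 30.1 to 43.2 in B cells and 27.7 to 40.4 and 72.8 to 77.2 in macrophages. In T cells the medians were 0.042 to 0.127 for CD8 and 0.089 to 0.166 for CD4, and 34.9 to 49.9% of T cells had no core UMI. A smaller set of T cells stood near 10 per 1000, apart from the rest.

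**Figure D3:**
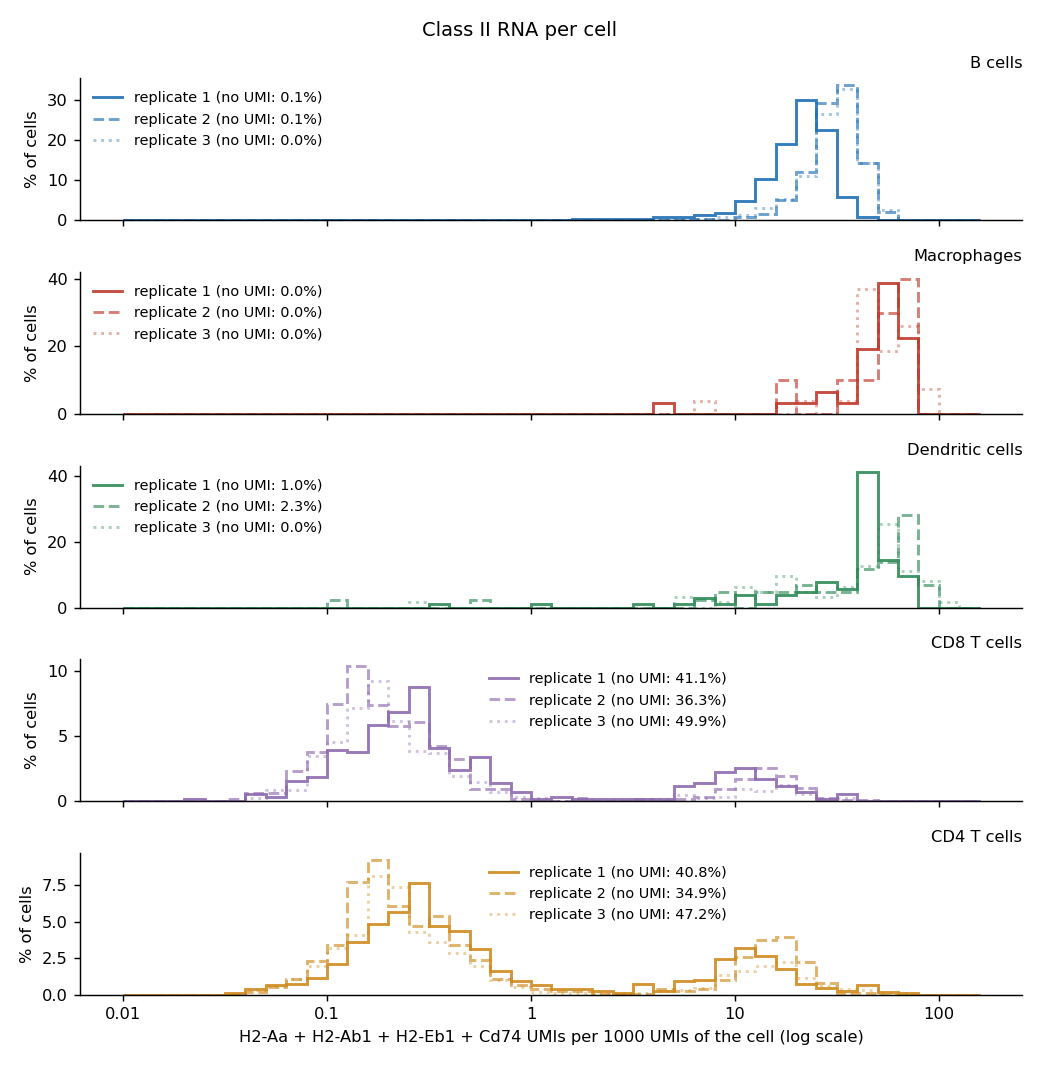
Percent of cells by core class II UMIs per 1000 UMIs of the cell (log axis), per class and library, with the percent of cells without such a UMI in the legends. T cells show a low mode under 1 per 1000 and a smaller mode near 10 per 1000, between the low mode and the level of B cells.

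Detection was also compared at equal depth. After thinning every cell to 1000 UMIs, H2-Aa was detected in 97.4% of B cells, 98.9% of macrophages and 94.7% of dendritic cells, against 15.0% of CD4 and 9.86% of CD8 T cells, which serve as the background (unthinned 99.8, 100, 97.0, 25.4 and 21.1%). Ciita was detected in 3.54, 11.1 and 7.61% of B cells, macrophages and dendritic cells and in 0.396 and 0.228% of CD4 and CD8 T cells. H2-DMb2 was detected in 34.8% of B cells, 24.8% of dendritic cells and 6.93% of macrophages, against 3.06% of CD4 T cells. H2-Oa at 0.927% and H2-Ob at 0.162% of macrophages were at or below the 1.03 to 1.79% of both T classes. The T classes include cells with B-cell markers, described below, and in T cells without markers of other classes H2-Oa stood at 4.6 and 5.5 CPM and H2-Ob at 2.5 and 2.9 CPM, against 17.9 and 1.8 CPM in pooled macrophage UMIs. Whether these few macrophage UMIs came from the macrophages was not tested.

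Inside the B and dendritic classes the genes varied by subset, described without a test. B cells with Ighd (3617) and without it (1172) had H2-Aa at 5649 ± 959 and 6197 ± 1616 CPM and H2-Ob at 226 and 190.1 CPM, overlapping. The 94 B cells with at least 5 Jchain and 2 Xbp1 UMIs, genes of antibody secretion, had H2-Aa at 935, 2284 and 950 CPM and Cd74 at 3810, 8601 and 5258 CPM. Their H2-Aa lay below every other B subset, and their H2-Ob mean was 50.04 CPM. These cells were deep: in replicate 1, 54 of them held 1200116 UMIs, against 6412929 UMIs in 1259 cells with Ighd. Jchain alone stood at 13815 to 28048 CPM in them. Their CPM is a share of a larger total per cell, and levels per cell were not compared. Dendritic cells with at least 2 Ccr7 UMIs (88), a receptor of migrating dendritic cells, had H2-Aa at 9942, 14188 and 13915 CPM, H2-Oa at a mean of 265 CPM and H2-DMb2 at 407 CPM. Those with at least 2 Siglech UMIs (54) had H2-Aa at 3797, 5014 and 4058 CPM. In them H2-DMb2 stood at 84.2, 117 and 32.5 CPM and H2-Ob at 7.0, 6.5 and 3.6 CPM. Their sums held only 142491, 153763 and 277262 UMIs, so these H2-Ob values were near the detection limit. The Siglech cells, in which Bst2 averaged 3849 CPM and Ccr9 1935 CPM, thus had low H2-Ob and low H2-DMb2 in all 3 libraries, while their H2-DMb1 mean of 203 CPM was near the 218 CPM of the Ccr7 cells. Cells with Xcr1 or Clec9a (16) and with Cd209a (10) were too few for a spread over libraries. In replicate 1 the 12 cells with Xcr1 or Clec9a had H2-Oa at 59.7, H2-DMb2 at 143 and H2-Ob at 47.8 CPM. Low H2-Oa and H2-DMb2 were thus not seen in Siglech cells alone.

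**Figure D4:**
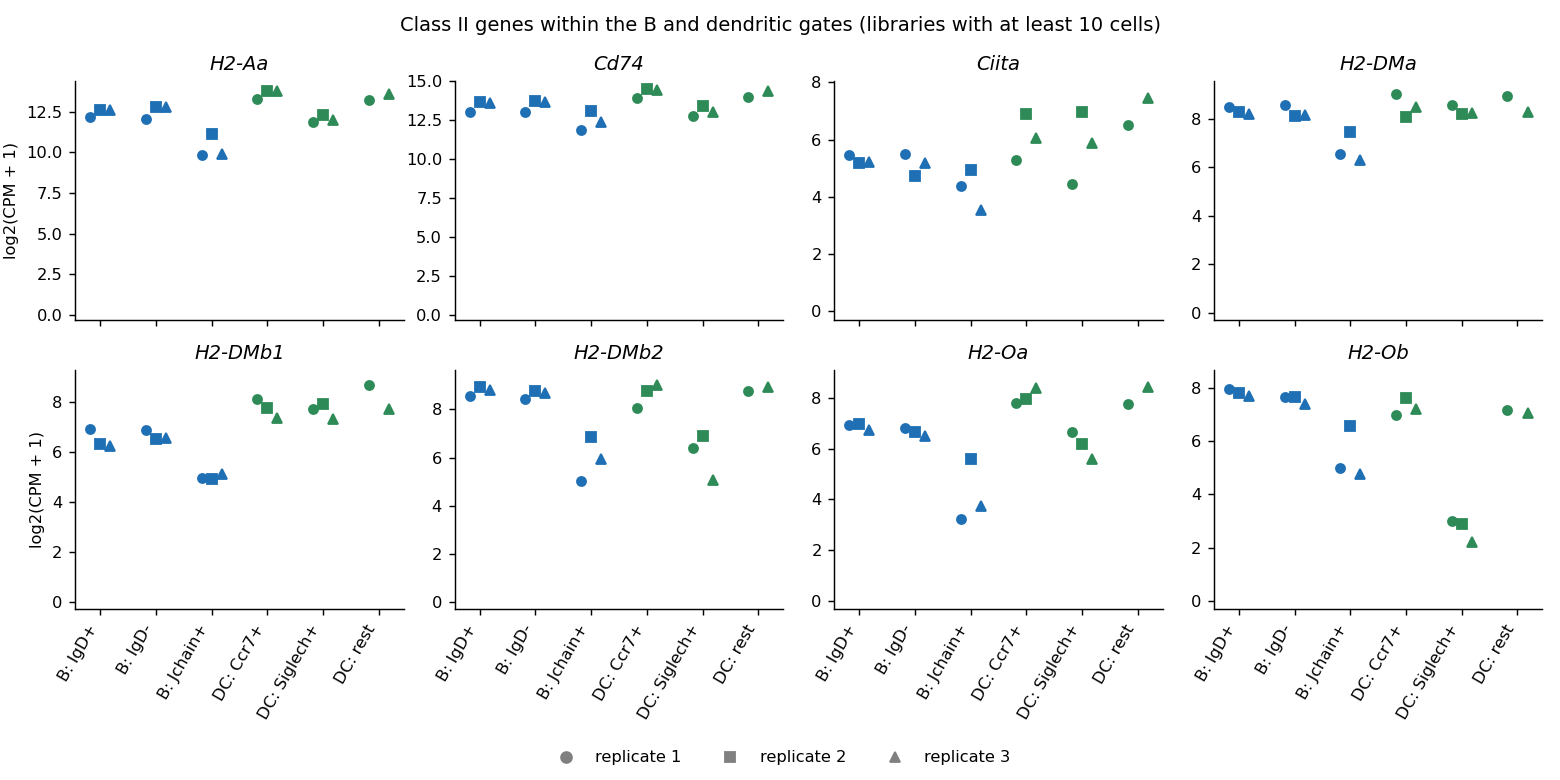
Level of 8 of the genes, log2(CPM + 1), in subsets of the B gate (blue) and the dendritic gate (green), for libraries with at least 10 cells of the subset; Jchain+ also had Xbp1, and the remaining dendritic cells have 2 libraries. H2-Ob in Siglech cells (3.6 to 7.0 CPM, near the detection limit) is below the other dendritic subsets. H2-Aa in Jchain B cells (935 to 2284 CPM) is below the other B subsets as a share of UMIs. These cells were deeper, and levels per cell were not compared.

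Mouse T cells are not known for making class II proteins, so their counts were taken as a gauge of RNA from other cells, whose source was not tested. H2-Aa stood at 869, 932 and 829.7 CPM in CD4 and 507, 540.0 and 301 CPM in CD8 T cells, and Cd74 at 1603, 2100 and 1642 and at 893, 1137 and 641 CPM. Every one of these values was below every antigen-presenting value of the gene. The mean of B cells, macrophages and dendritic cells was above the mean of both T classes for 9 of the 10 genes, against 50.2% of all genes called (19.2% higher and 31% lower). The difference was 3.82 for H2-Aa (SE 0.13, adjusted p = 7.45e-13), 3.79 for Ciita, 3.14 for H2-DMa, 4.16 for H2-DMb1 and 2.17 for H2-DMb2 and for H2-Oa. H2-Oa had an adjusted p of 8.97e-05, or 0.107 without replicate 1 (range over 10 alternatives 2.16e-19 to 0.107). H2-Ob, whose mean includes the macrophages, differed by 0.69 (adjusted p = 0.357). The H2-Ob level in T cells, 13.5 to 34.99 CPM, was above the 0 to 5.3 CPM of macrophages. Likewise H2-DMb2 in T cells, 19.4 to 73.8 CPM, spanned the macrophage values, although its thinned detection share was higher in macrophages (6.93% against 3.06% in CD4 T cells).

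A small set of T cells held nearly all of this RNA. The 908 CD4 T cells with over 3 core UMIs per 1000, 11.1 to 15.8% of the class, held 96.8 to 97.4% of its core UMIs, and the 256 such CD8 T cells, 5.08 to 12.05%, held 93.1 to 96.0%. That limit was chosen after the distribution had been seen. Of these cells 85.8 to 93.2% (CD4) and 82.4 to 95.5% (CD8) had at least 2 Cd79a UMIs, the B rule, and 91.9 to 97.3% met the B, macrophage or dendritic marker count, against at most 0.587% of the other T cells. They were also deeper, with median depths of 8082 to 13990 UMIs (CD4) and 7776 to 15654 UMIs (CD8) against 4110.0 to 6117 and 4997 to 7331 for the rest. No doublet caller was run, and whether these barcodes held a T cell with another cell was not tested.

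Core UMIs in CD4 T cells stood at 46.2 ± 8.40% of the level over all kept cells, and in CD8 T cells at 22.7 ± 3.75%. Of the B genes, Cd79b stood at 41.0 and 23.8%, Ms4a1 at 41.2 and 21.7% and Ighm at 54.9 ± 32.2 and 42.2 ± 29.6%. T cells with no UMI of 16 genes of B cells, macrophages and dendritic cells, a set chosen after the data had been seen, had core levels of 2.80 ± 1.22% (CD4, 275 CPM) and 1.55 ± 0.22% (CD8, 142 CPM). In that set H2-Aa was detected in 2.55% of CD4 and 2.21% of CD8 T cells after thinning. A few cells held much of its core RNA. Of its CD4 T cells 3, 5 and 2 had over 3 core UMIs per 1000 (replicates 1, 2 and 3). They held 66.5, 35.1 and 13.1% of the core UMIs of these CD4 T cells. The 0, 1 and 2 such CD8 T cells held 0, 12.7 and 26.5%. Levels without these cells were not compared. The genes did not fall in step in that set. H2-DMa stayed at 13.2 and 12.8% of the all-cell level (15.0 and 14.0 CPM) and H2-Oa at 11.4 and 14.2% (4.6 and 5.5 CPM). H2-DMa stood at 6.34 (CD4) and 9.89 (CD8) UMIs per 100 core UMIs there against 1.28 in B cells, and H2-Oa at 1.94 and 3.87 against 0.43, while H2-DMb2 at 1.12 and 1.54 was near the 1.61 of B cells.

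**Figure D5:**
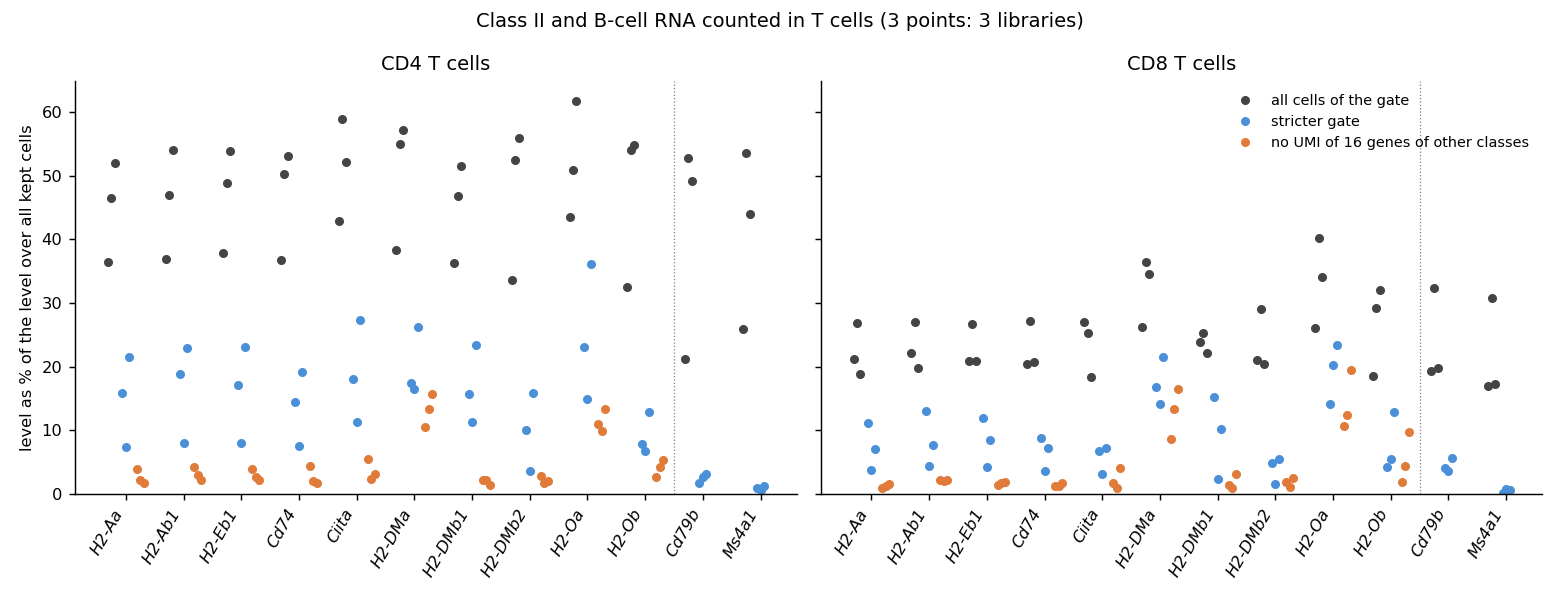
Level in CD4 and CD8 T cells as percent of the level over all kept cells of the library, for the 10 genes and 2 B-cell genes; each gene has 3 libraries in all cells of the gate (black), the stricter gate (blue) and cells with no UMI of 16 genes of other classes (orange; B-cell genes are not drawn since they define it). H2-DMa and H2-Oa (orange) stay above the other 8 genes on average, at 11.4 to 14.2%.

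CD4 T cells were above CD8 T cells for 9 of the 10 genes, all but H2-Oa, where 9.43% of all genes were called (6.42% higher and 3.01% lower). The median of the 10 genes was 0.89 and that of all genes 0.02. The CD4 gate asked for fewer coreceptor UMIs than the CD8 gate, and the effect of this was not tested. H2-Aa differed by 0.90 (adjusted p = 0.00206) and Cd74 by 0.93 (adjusted p = 0.000937). Cd79b and Ms4a1 were also higher in CD4 than in CD8 T cells in all 3 libraries. Ighm was not: it stood at 249, 429 and 288 CPM in CD4 and 455, 422 and 75.9 CPM in CD8 T cells. Their part in the result was not tested. Without the library block 4 of the 10 genes were called, without replicate 3 there were 3, with the stricter gates 2, with the study's limits on cells 0, and in T cells without markers of other classes 1, H2-Aa (0.97, SE 0.30, adjusted p = 0.0466; range over 11 alternatives 4.41e-11 to 0.953). In the last set H2-DMa, H2-DMb1, H2-Oa and H2-Ob had differences of -0.02, -0.01, -0.40 and -0.44, none of them called. The few cells with many core UMIs given above were kept in that set, and their part in its H2-Aa call was not tested.

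Of 19 other pathway genes tested (regulators, proteases and turnover genes), 1 was called higher and 11 lower in B cells than in macrophages, with the same 33.4% of all genes called. Dendritic cells over B cells gave 11 higher, 1 lower and 7 not called, beside 43.5% of all genes called, and dendritic cells over macrophages 3, 7 and 9, beside 18.1%. Enzymes that trim the invariant chain or break down antigen were low in B cells. Ctss, the cathepsin needed to make CLIP in B and dendritic cells, stood at 304, 239 and 231 CPM in B cells, 2379, 1435 and 1401 CPM in macrophages and 791, 827 and 894 CPM in dendritic cells, with no overlap and a difference of -2.70 for B cells over macrophages (adjusted p = 1.65e-09). Ctsb differed by -5.63, Ctsd by -4.51, Lgmn by -4.00 and Ctsl with a log2 difference of -3.81, and Ifi30, a thiol reductase of antigen processing, by -1.95. Ctsl, another CLIP-making cathepsin, stood at 177, 211 and 445 CPM in dendritic cells and at 190.3, 55.5 and 144 CPM in macrophages, which overlapped, against a mean of 9.9 CPM in B cells.

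Among regulators the pattern was mixed. Spi1, a myeloid and B-cell factor, was lower in B cells than in macrophages with a log2 difference of -2.86 and Irf1, which acts downstream of interferon-gamma, with a log2 difference of -2.13. Nfya, a Y box subunit, was lower with a log2 difference of -1.04, and Nfyb was the 1 gene called higher, on 3 macrophage UMIs. Irf8 was highest in dendritic cells, at a mean of 746 CPM against 378 in B cells and 335 in macrophages. Dendritic cells were above B cells also for Rfxap (0.73), a subunit of the X box factor. Rfx5, Rfxank, Creb1, Nfyc and March1, a ligase that removes surface class II, were not called in any of the 3 comparisons. Cd83, which protects class II from that ligase, was below macrophages in B cells (-0.59) and dendritic cells (-0.62), as was Sppl2a, which cleaves the last invariant chain stub (-1.52 and -0.46).

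Across the 15 sums, the gene whose log2(CPM + 1) was most like the mean of the 4 core genes, among 4060 genes outside the 10, was Cd86, a costimulatory ligand (Pearson r = 0.993). Cd83 (0.988), Syk (0.985), Litaf (0.984), Ly86 (0.981), Unc93b1 (0.980), Ctsz (0.978), Irf5 (0.976), Plekho1 (0.976) and Ctsh (0.976) came next. Cd86 stood at means of 251, 401 and 414 CPM in B cells, macrophages and dendritic cells and at 24.9 and 44.96 CPM in CD8 and CD4 T cells. Of the 10 genes themselves, H2-DMa (0.980), Ciita (0.977) and H2-DMb1 (0.963) followed the core genes, H2-DMb2 (0.596) and H2-Oa (0.349) less so, and H2-Ob (-0.011) did not. These correlations describe 15 sums that share 3 libraries, and the step between T cells and the other classes spans most of the range.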

How the data were processed

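The 3 libraries were 10x 3′ gene expression libraries, which the authors processed with Cell Ranger 6.0.1 against mm10. They deposited filtered matrices of raw UMI counts per gene and cell. Total UMI counts were 33851381, 74775394 and 80806452, with a median of 4230.0, 6415 and 5521 per cell. The 10 genes, the gates and the gene lists were chosen with earlier results of these data known. Cells with at least 1000 UMIs and under 10% mitochondrial UMIs were gated by raw UMIs and the counts summed per library and class (15 sums). Sums were tested with edgeR 4.0.16 in R 4.3.3 (filterByExpr, TMM, quasi-likelihood test, library as a block, Benjamini-Hochberg over 12055 genes, threshold 0.05). The block was used because classes of one library come from the same pooled mice. Deviations from the class means had r of 0.01 to 0.69 within a library (30 pairs) and -0.58 to 0.35 between libraries (60 pairs). Each class was centred on its own mean of 3 libraries, which ties these ranges to each other. Their means were 0.23 within and -0.11 between libraries. With this centring a positive mean within libraries brings a negative mean between them, so they are not separate evidence. Ratios were compared by an exact sign-flip permutation test over 3 libraries. Detection shares are hypergeometric expectations at 1000 UMIs per cell (scipy 1.17.1, numpy 2.4.6, pandas 2.3.3, Python 3.11.15). Intervals cover counting error only. The scripts were tested on simulated counts.

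Named were all 10 genes, the pathway genes called in a comparison among antigen-presenting classes, and the 10 genes most correlated with the core genes that had a class mean of at least 50 CPM. 1 pathway gene and 1 marker gene are not reported here. Pathway genes not called are also named, chosen after their values were seen. Stricter gates allowed no Cd79a UMI outside B cells and no C1qa or C1qb UMI outside macrophages. The study's own limits on cells (between 200 and 5000 genes, fewer than 6000 UMIs, a mitochondrial share below 5% and a ribosomal share above 5%) were an alternative only, because they leave 18, 1 and 4 macrophages and 8, 0 and 1 dendritic cells. Other alternatives were DESeq2 1.42.0, library totals, no count filter, no replicate block, other gene totals and leaving out each library. T cells without markers of other classes were an alternative added after the data had been seen. It left the B, macrophage and dendritic counts as they were, so comparisons among these changed only through the shared fit. Which library came from which experiment is not given in the sources used here, so no batch could be compared.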

Additional observations from a re-analysis of the deposited data

Results flagged for a closer look

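Cells that met no class rule are outside the comparisons and still held class II RNA. H2-Aa, H2-Ab1, H2-Eb1 and Cd74 summed to 8017, 4579 and 4579.9 CPM in these cells of replicates 1, 2 and 3, and they held 17.6 to 25.5% of all core UMIs, against 45.7 to 58.7% in B cells. Of the no-class cells, 989 had both Cd3e and at least 2 Cd79a UMIs and held 29.997 to 66.4% of the no-class core UMIs at 12185 to 15937 CPM. Another 2706 had no Cd3e, Cd79a, C1qa or C1qb and held 19.2 to 47.2%, at 4772 to 16924 CPM.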

How the results depend on the processing

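The numbers of genes called over the whole table were 4032 (B cells over macrophages), 5249 (dendritic over B cells), 2186 (dendritic cells over macrophages), 6053 (antigen-presenting over T cells) and 1137 (CD4 over CD8 T cells). Leaving out each library gave 2626 to 3302, 3538 to 4717, 906 to 1597, 4223 to 5585 and 410 to 1529. Of these, the counts without replicate 3 were 2626, 906 and 410 for B cells over macrophages, dendritic cells over macrophages and CD4 over CD8 T cells, and that for CD4 over CD8 T cells was 501 without replicate 2. With no replicate block, so without pairing classes by library, CD4 over CD8 T cells gave 374 calls, and with the study's limits on cells 687; the cause was not tested. Among the 10 genes, each tested in 5 comparisons, 442 of 510 alternative values kept direction and call, 49 lost the call, 6 gained it and 13 reversed.

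The reversals in CD4 over CD8 T cells were H2-Ab1 (-0.082), Ciita (-0.47), H2-DMa (-0.093), H2-DMb1 (-0.48), H2-DMb2 (-0.56), H2-Oa (-0.41) and H2-Ob (-0.46) with the study's limits, and H2-DMa (-0.023), H2-DMb1 (-0.015), H2-Oa (-0.40) and H2-Ob (-0.44) in T cells without markers of other classes. Leaving out each library gave -0.018 to 0.39 for H2-DMa in dendritic over B cells and -1.71 to 0.91 for H2-Ob in antigen-presenting over T cells, both lowest and negative without replicate 1. H2-Ob in the latter passed the test with stricter gates (2.85, edgeR adjusted p = 0.0139) and in T cells without other markers (3.62, edgeR adjusted p = 0.00428). Leaving out each library gave a log2 ratio of H2-Aa to H2-Ab1 in B cells over macrophages of -0.13 to 0.0083 (highest without replicate 3), and of H2-Eb1 to H2-Ab1 in B over dendritic cells of -0.062 to 0.011 (0.0085 without replicate 2 and 0.011 without replicate 3). The share of T cells with H2-Aa fell, with the study's limits, the stricter gates and no markers of other classes, from 9.86% to 4.37, 3.13 and 2.21% in CD8 and from 15.0% to 4.52, 3.73 and 2.55% in CD4. The core level in T cells fell likewise from 22.7% to 6.07, 7.36 and 1.55% in CD8 and from 46.2% to 7.10, 14.9 and 2.80% in CD4. The comparisons with macrophages or dendritic cells were not fitted under the study's limits, which leave 18, 1 and 4 macrophages and 8, 0 and 1 dendritic cells. Depth limits Ciita and H2-O in macrophages, where 54 and 11 UMIs were counted.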
